A study of Homo sapiens with 9 samples.

Results

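Genes of cholesterol and fatty acid synthesis were followed in OCI-Ly1 cells, an established human line of diffuse large B-cell lymphoma. The group was a fixed list of 33 gene symbols out of 25370 in the deposited count table: 5 regulators of the SREBP transcription factors, 18 enzymes of sterol synthesis, 7 enzymes of fatty acid synthesis and 3 sterol transport genes. All 33 were found in the table, and all 33 passed the filter on low counts, so every member was tested. Cells growing in serum-containing medium were kept for 48 h with JIB-04 at 150 or 500 nM or with its vehicle, DMSO, and ribosomal RNA-depleted RNA was sequenced from 3 libraries per condition, 9 in all. The small molecule JIB-04 blocks histone demethylases of the Jumonji class, and the study's title names 2 of them, KDM4A and KDM4C. All groups share the same cell line and medium, no genotype differs between them, and a single line stands for the disease. Whether the 3 libraries of each condition are separate cultures is not stated, so the spread behind each p-value is that between libraries and may be technical.

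Cells make cholesterol from acetyl-CoA through the mevalonate pathway, then squalene, then lanosterol, and make fatty acids from the same acetyl-CoA. The SREBP transcription factors, encoded by SREBF1 and SREBF2, are held in the endoplasmic reticulum by SCAP and the INSIG proteins while sterols are plentiful. When sterols run low, SCAP escorts SREBP to the Golgi, where proteases release the active fragment, and genes of both pathways are switched on. INSIG1 is itself such a target gene, which closes a feedback loop. The transporters ABCA1 and ABCG1 export sterol and are classic targets of the oxysterol-sensing LXR receptors. Serum supplies lipoprotein cholesterol to cultured cells, and dividing lymphoma cells need lipid for new membranes.

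The libraries held 28476845 to 57198613 counts, with DMSO replicate 2 the shallowest, and the members had at least 215 counts in each of the 9 libraries. Values are in CPM, counts scaled to a common library size, after trimmed-mean scaling (TMM), and genes were called where the p adjusted over the 15089 genes tested was below 0.05 (edgeR's quasi-likelihood test, Benjamini-Hochberg adjustment). Of 12 germinal-centre B-cell markers, 12 exceeded 1 CPM on average at 500 nM and 11 in DMSO, where LMO2 was near 0. Their summed level was 1885 to 1956 CPM at 500 nM, against 2293 to 2349 CPM in DMSO. The 5 plasma-cell markers summed to 592 to 626 CPM at 500 nM, against 284 to 324 CPM in DMSO. Most of this was IRF4, which averaged 451 CPM at 500 nM and 245 CPM in DMSO. SDC1, a defining plasma-cell marker, averaged 0.13 CPM at 500 nM and was at 0 in DMSO. The other 4 exceeded 1 CPM in both groups. Markers of T and NK cells summed to 8.13 to 9.03 CPM at 500 nM, against 19.0 to 22.1 CPM in DMSO, with CD4 at 0 in DMSO and 2 of 8 measured markers, CD3D and CD3G, above 1 CPM in each group. Markers of monocytes, of fibroblasts and endothelium and of epithelium summed to at most 6.19 CPM in any library. The part of these marker levels in the results below was not tested. In bulk RNA, fewer cells of a type and less RNA per cell cannot be told apart.

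At 500 nM JIB-04 the lipid synthesis genes were mostly lower than in DMSO, while SREBF1, which encodes SREBP factors, was higher. SREBF2 was called higher too, but its libraries overlapped and the call held under 14 of 19 alternative analyses. Of the 33 members, 17 fell and 3 rose, and 13 were not called. Among all genes tested, 25.6% were called lower and 26.3% higher, 52% in all. The median log2 fold change of the members was -0.25, beside 0.01 for all genes tested, and 27 of 33 members lay below 0. In 18 members every 500 nM library was lower than every DMSO library, and in 2 every one was higher, beside 29% and 30.2% of all genes. The split depended on the scaling: with plain total counts the median of all genes moved to 0.15, 5 members were higher and 12 lower, and 5716 of all genes were higher and 2514 lower, in place of 3975 higher and 3868 lower.

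**Figure D1:**
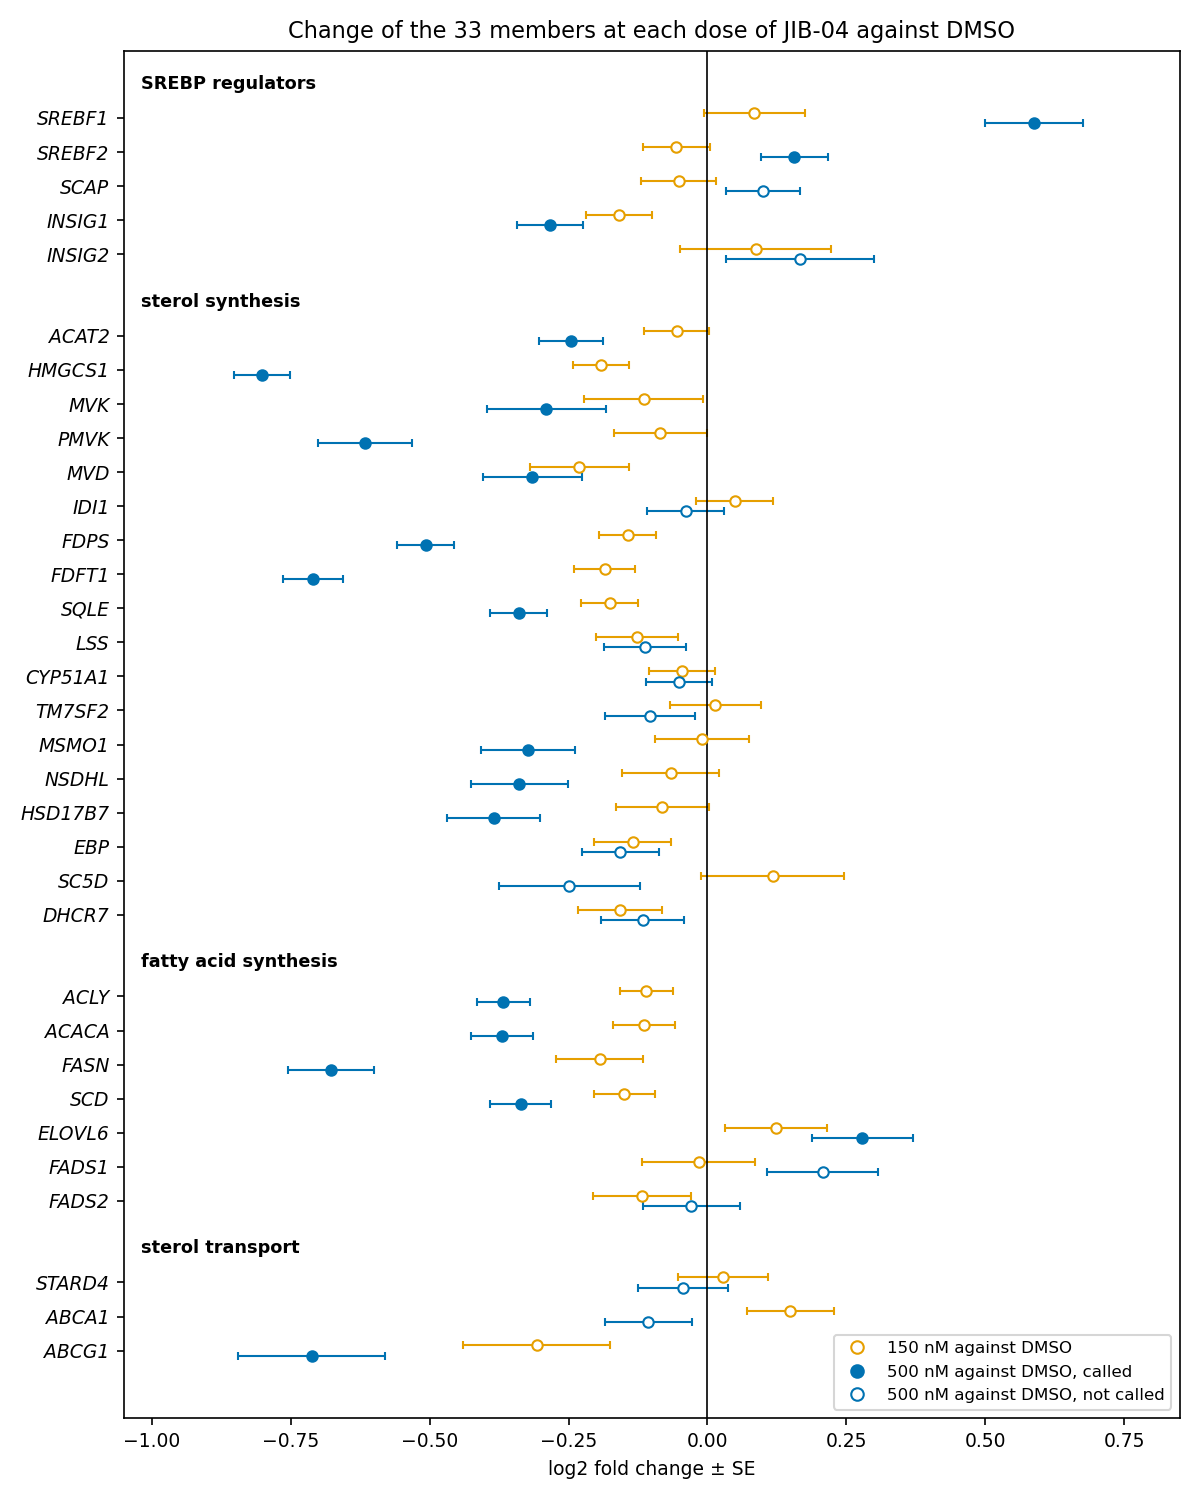
Log2 fold change of each of the 33 members (points, with bars of 1 standard error) for 500 nM JIB-04 against DMSO and for 150 nM against DMSO, ordered by role. Filled points passed the test, as 20 members did at 500 nM and 0 did at 150 nM.

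The 5 regulators did not move together. SREBF1, which encodes the SREBP-1 factors that drive fatty acid genes, had 26.6, 31.1 and 29.4 CPM in the 500 nM libraries, against 19.0, 20.8 and 18.3 CPM in DMSO. The groups did not overlap, and SREBF1 rose by 0.59 ± 0.09 on the log2 scale (SE, adjusted p = 2.89e-06, edgeR). At 150 nM SREBF1 had 21.3, 20.8 and 19.2 CPM, overlapping the DMSO libraries (log2 fold change 0.08 ± 0.09, adjusted p = 0.823). SREBF2, which encodes the SREBP-2 factor that drives sterol genes, had 202, 216 and 216 CPM at 500 nM, against 209, 182 and 177 CPM in DMSO. DMSO replicate 1 lay inside the 500 nM range, so the groups overlapped. The rise of SREBF2 was 0.16 ± 0.06 (adjusted p = 0.031). Leaving out 500 nM replicate 2 or 3, or DMSO replicate 2 or 3, ended that call, with adjusted p of 0.105, 0.107, 0.138 and 0.168, and so did removing the trend on transcript length (0.116).

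SCAP, the escort of the SREBP factors, had 72.4, 80.2 and 72.7 CPM at 500 nM, against 73.9, 67.8 and 68.4 CPM in DMSO. These ranges overlapped, and SCAP did not pass the test (0.10 ± 0.07, adjusted p = 0.217). INSIG1, which retains SCAP and SREBP in the endoplasmic reticulum, had 157, 149 and 154 CPM at 500 nM, against 169, 195 and 196 CPM in DMSO. INSIG1 fell by 0.28 ± 0.06 on the log2 scale (adjusted p = 0.00022), with no overlap. Its paralog INSIG2 had 10.6 ± 1.48 CPM at 500 nM and 9.44 ± 0.97 CPM in DMSO (SD, n = 3 each), and did not pass the test (0.17 ± 0.13, adjusted p = 0.307). The 5 regulators thus held 2 genes that rose (40%), 1 that fell (20%) and 2 that were not called. Among all genes 26.3% were called higher and 25.6% lower, 52% in all, so 3 calls in 5 genes lie near that background. Under total-count scaling SCAP was called higher as well (0.24, adjusted p = 0.00434), and INSIG1 was lower by a smaller amount (-0.14, adjusted p = 0.0369).

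The promoters of 4 members are shown because SREBF1 was higher at 500 nM while HMGCS1 and FDPS, target enzymes of the SREBP factors, were lower. SREBF2 was called higher, with overlapping libraries. Other enzymes of the pathway, such as IDI1 and CYP51A1, were not called. Each window runs from 250 bases before to 50 after the annotated start, 300 bases in all, 5′ to 3′ on the strand of the gene (RefSeq, GRCh38.p14). Capitals mark matches to a sterol regulatory element written as TCACNCCAC, the kind of site that SREBP binds, and to the CCAAT box, which the cofactor NF-Y binds. Both strands were searched, so a CCAAT box on the other strand reads ATTGG, and no match overlapped another.
SREBF2: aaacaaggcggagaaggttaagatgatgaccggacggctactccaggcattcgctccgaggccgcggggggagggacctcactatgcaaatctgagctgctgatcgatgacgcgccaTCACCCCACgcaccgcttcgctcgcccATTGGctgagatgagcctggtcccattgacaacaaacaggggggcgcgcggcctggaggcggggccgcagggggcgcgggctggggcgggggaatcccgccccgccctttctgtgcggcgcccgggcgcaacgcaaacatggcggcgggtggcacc
SREBF1: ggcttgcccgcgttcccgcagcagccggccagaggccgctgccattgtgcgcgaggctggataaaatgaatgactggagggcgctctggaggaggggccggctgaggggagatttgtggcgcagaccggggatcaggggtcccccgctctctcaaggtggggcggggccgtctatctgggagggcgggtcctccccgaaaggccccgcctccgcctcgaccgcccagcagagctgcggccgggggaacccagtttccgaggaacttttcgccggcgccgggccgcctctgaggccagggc
HMGCS1: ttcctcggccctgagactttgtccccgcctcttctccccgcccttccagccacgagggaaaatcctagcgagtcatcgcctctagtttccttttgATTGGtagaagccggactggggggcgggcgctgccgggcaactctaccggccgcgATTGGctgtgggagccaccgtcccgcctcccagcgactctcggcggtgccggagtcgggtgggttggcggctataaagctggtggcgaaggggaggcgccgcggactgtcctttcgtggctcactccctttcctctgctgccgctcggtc
FDPS: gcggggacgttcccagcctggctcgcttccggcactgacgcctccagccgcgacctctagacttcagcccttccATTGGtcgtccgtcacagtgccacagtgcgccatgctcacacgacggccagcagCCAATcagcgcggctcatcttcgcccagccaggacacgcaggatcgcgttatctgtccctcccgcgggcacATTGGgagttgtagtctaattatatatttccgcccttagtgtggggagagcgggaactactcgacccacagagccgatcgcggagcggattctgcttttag
These windows lie at chr22:41832855-41833154 (plus strand, SREBF2), chr17:17836937-17837236 (minus strand, SREBF1), chr5:43313363-43313662 (minus strand, HMGCS1) and chr1:155308616-155308915 (plus strand, FDPS). SREBF2 held 1 sterol regulatory element and 1 CCAAT box, the HMGCS1 window shown held 2 CCAAT boxes, FDPS held 3, and neither motif was found in the SREBF1 window. HMGCS1 has a second window in the table, from a start further downstream, which held neither motif. Of 28 members with a window in the table, 20 (71.4%) held a CCAAT box in at least 1 window, beside 39.7% of the 27305 genes listed. The sterol regulatory element was found in 1 of the 28 (3.57%), beside 1.39% of all genes. A match of letters is a description of the window and not a measured binding site. Only exact matches to these letters inside the 300 bases were counted, so a window without a match does not show that the gene lacks such a site. ACAT2, FDFT1, SQLE, FASN and ABCG1 had no window in the table.

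**Figure D2:**
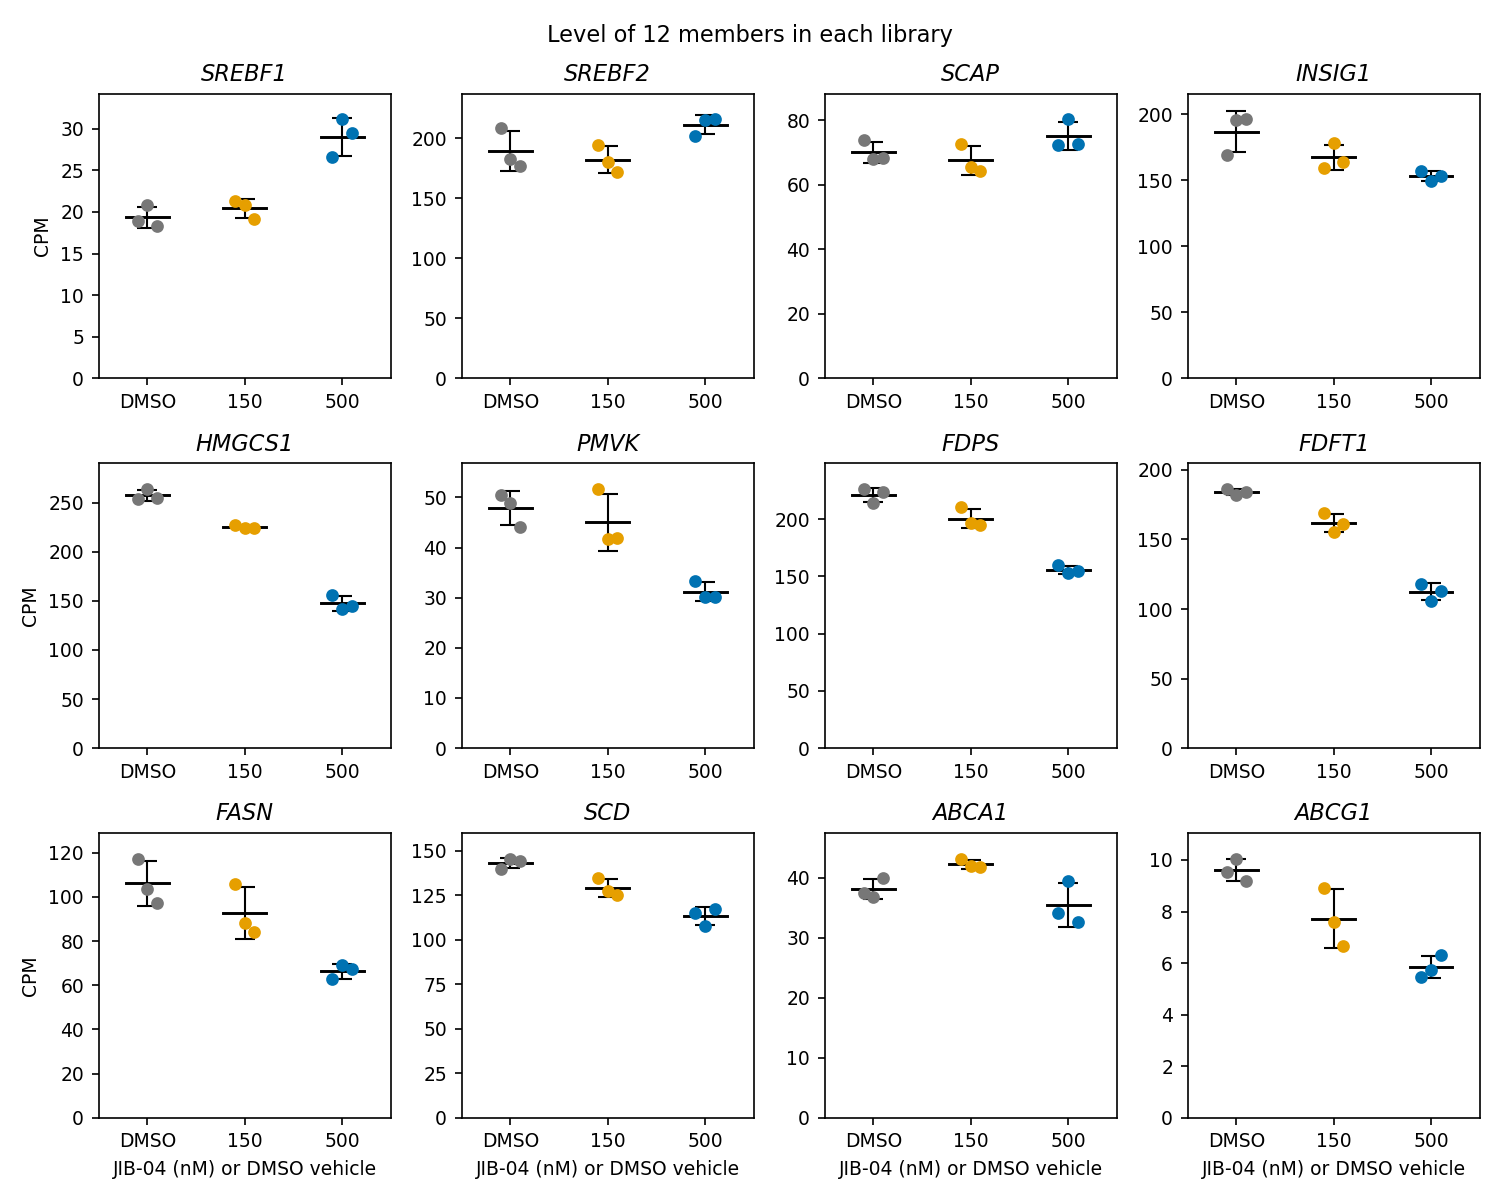
CPM of 12 members in each of the 9 libraries at 0 (DMSO), 150 and 500 nM JIB-04, with bars for the mean ± SD of each group. The 500 nM points of HMGCS1, PMVK, FDPS, FDFT1, FASN, SCD, INSIG1 and ABCG1 lie below all DMSO points, those of SREBF1 lie above them, and those of SREBF2, SCAP and ABCA1 overlap them.

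RNA of the sterol synthesis enzymes was lower at 500 nM along most of the pathway. Of the 18 enzymes, 11 fell and 0 rose, beside 25.6% of all genes called lower and 26.3% higher. Their median log2 fold change was -0.30, with a range of -0.80 to -0.04. In 12 of them the 500 nM libraries lay wholly below the DMSO libraries, beside 29% of all genes. All 18 had a negative fold change under TMM. That count was 13 of 18 under total-count scaling, where 6 were called lower, beside 2514 of all 15089 genes. Without DMSO replicate 3 it was 17 of 18. Their summed level was 1522 ± 34.2 CPM at 500 nM and 1931 ± 19.0 CPM in DMSO (SD, n = 3 each).

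The early mevalonate and isoprenoid steps held 6 of the 11 enzymes that fell, out of 7, beside 25.6% of all genes called lower. HMGCS1, the synthase that makes HMG-CoA, had 156, 142 and 145 CPM at 500 nM, against 254, 264 and 255 CPM in DMSO. Its libraries were far apart, and the fold change of -0.80 ± 0.05 (adjusted p = 2.05e-13) was the lowest of all 33 members. PMVK, the kinase that adds the second phosphate to mevalonate, had 33.4, 30.1 and 30.2 CPM at 500 nM, against 50.6, 49.0 and 44.1 CPM in DMSO. PMVK fell by 0.62 ± 0.08 on the log2 scale (adjusted p = 6.15e-07). FDPS, which joins isoprene units into farnesyl diphosphate, had 159.8, 153 and 155 CPM at 500 nM, against 226, 214 and 223 CPM in DMSO. It fell by 0.51 ± 0.05 (adjusted p = 2.91e-09), and again no library overlapped.

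The other early enzymes moved less. MVD, the decarboxylase that yields isopentenyl diphosphate, had 32.9 ± 0.0724 CPM at 500 nM and 41.0 ± 5.88 CPM in DMSO (log2 fold change -0.32 ± 0.09, adjusted p = 0.00381). MVK, mevalonate kinase, had 14.6 ± 1.31 CPM at 500 nM and 17.9 ± 1.31 CPM in DMSO (-0.29 ± 0.11, adjusted p = 0.0242). ACAT2, the thiolase that condenses acetyl-CoA, fell by 0.25 ± 0.06 (adjusted p = 0.000813). The call of MVK was lost without 500 nM replicate 2 (adjusted p = 0.0534), 500 nM replicate 3 (0.124) or DMSO replicate 2 (0.101), and those of MVK, MVD and ACAT2 were lost under total-count scaling, with adjusted p of 0.243, 0.1 and 0.122. Exons of ACAT2 overlap SOD2 (34.8% of its bases) and TCP1 (12.5%) on the opposite strand in GENCODE 29, and no source used here gives the strand setting of the counting, so reads of these genes may be mixed. IDI1, the isomerase of the isoprene unit, had 116 ± 3.77 CPM at 500 nM and 119 ± 8.53 CPM in DMSO, and did not pass the test (-0.04 ± 0.07, adjusted p = 0.659).

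Of the 3 enzymes that lead from farnesyl diphosphate to lanosterol, 2 fell, beside 25.6% of all genes called lower and 52% called in all. FDFT1, squalene synthase, had 118, 106 and 113 CPM at 500 nM, against 186, 182 and 184 CPM in DMSO. The DMSO values were tight and lay far above the 500 nM values, and FDFT1 fell by 0.71 ± 0.05 (adjusted p = 1.32e-11). SQLE, the squalene epoxidase, had 203 ± 5.40 CPM at 500 nM and 257 ± 12 CPM in DMSO, a fall of 0.34 ± 0.05 (adjusted p = 2.84e-06). LSS, the cyclase that forms lanosterol, was not called (-0.11 ± 0.07, adjusted p = 0.206).

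The 8 late enzymes, from lanosterol to cholesterol, held 3 that fell (37.5%), beside 25.6% of all genes called lower. Their median was -0.20. HSD17B7, a sterol ketoreductase, had 24.0 ± 0.856 CPM at 500 nM and 31.3 ± 1.79 CPM in DMSO (-0.38 ± 0.08, adjusted p = 0.000333). NSDHL, the sterol dehydrogenase of the same demethylation complex, fell by 0.34 ± 0.09 (adjusted p = 0.00173), and MSMO1, the C4 methyl oxidase, fell by 0.32 ± 0.08 (adjusted p = 0.00202). The calls of NSDHL and MSMO1 were lost under total-count scaling, with adjusted p of 0.0555 and 0.063. CYP51A1, lanosterol demethylase, had 263 ± 10.7 CPM at 500 nM and 273 ± 14.9 CPM in DMSO (-0.05 ± 0.06, adjusted p = 0.486). DHCR7, the reductase whose product is cholesterol, had lower values in each 500 nM library than in any DMSO library, yet did not pass the test (-0.12 ± 0.07, adjusted p = 0.196). TM7SF2, EBP and SC5D were also not called, at -0.10 ± 0.08, -0.16 ± 0.07 and -0.25 ± 0.13. With DMSO replicate 3 left out EBP passed (adjusted p = 0.00733), as it did with 150 nM replicate 1 left out (0.035), and SC5D passed when DMSO replicate 1 (0.0431) or 150 nM replicate 1 (0.0299) was left out. With GC trends removed TM7SF2 (-0.29, adjusted p = 0.000478), EBP (0.0124) and DHCR7 (0.00547) were called lower, which makes 6 of the 8 late enzymes, and with LSS (0.00239) 15 of the 18 sterol enzymes. Under that setting 4182 of all 14438 genes tested were called lower and 4168 higher. Counts of FDPS and HSD17B7 may be shared with pseudogene copies, which were lower in level: FDPSP2 had 3.46 CPM at 500 nM and 5.6 CPM in DMSO, and HSD17B7P2 had 5.5 CPM at 500 nM and 6.73 CPM in DMSO.

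Per kilobase of the longest GENCODE 29 transcript, the order of levels along the pathway changed with dose. In DMSO the highest sterol enzymes were FDPS at 109.7, SQLE at 86.8, CYP51A1 at 85, HMGCS1 at 73.4 and FDFT1 at 69.2 CPM per kb. At 500 nM CYP51A1 stood first at 82.0 CPM per kb, followed by FDPS at 77.2 and SQLE at 68.6, with FDFT1 at 42.3 and HMGCS1 at 42.1. CYP51A1 and FDPS at 500 nM lay close to each other, and their order rests on the transcript length assigned to each. MVK was the lowest enzyme of the 18, at 3.56 CPM per kb at 500 nM and 4.37 CPM per kb in DMSO.

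**Figure D3:**
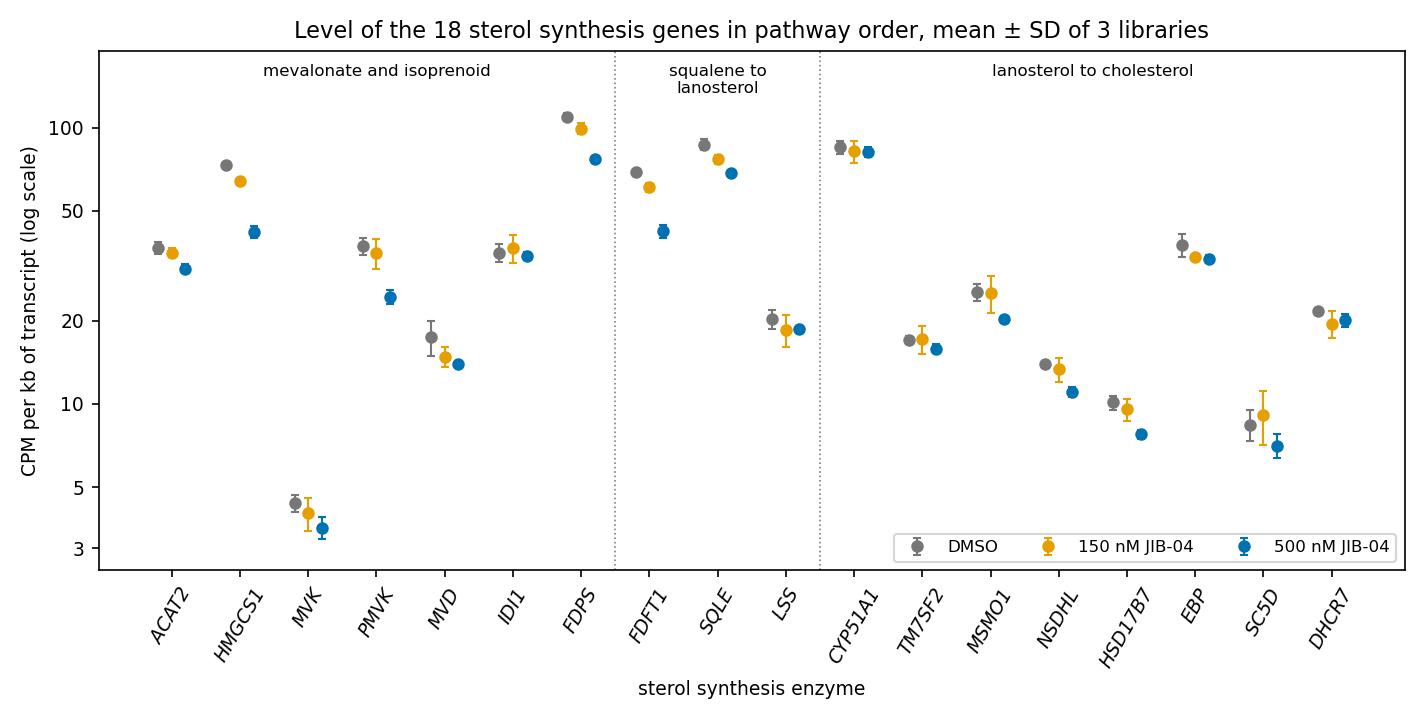
Level of the 18 sterol synthesis enzymes in pathway order, in CPM per kb of the longest transcript on a log axis, as the mean ± SD of 3 libraries for DMSO, 150 nM and 500 nM. HMGCS1, FDPS and FDFT1 separate by dose, PMVK is lower at 500 nM than in the other 2 conditions, whose libraries overlap, and IDI1 and CYP51A1 lie together at all 3 conditions.

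Among the fatty acid synthesis genes, RNA of ACLY, ACACA, FASN and SCD was lower at 500 nM. That of the elongase ELOVL6 was higher, and the polyunsaturated fatty acid desaturases were not called. Of the 7 members, 4 fell and 1 rose, beside 25.6% of all genes called lower and 26.3% higher. Their median log2 fold change was -0.34. FASN, the fatty acid synthase, had 62.6, 69 and 67.5 CPM at 500 nM, against 117, 104 and 97.2 CPM in DMSO. The groups were well apart, with a fall of 0.68 ± 0.08 (adjusted p = 5.38e-08). ACLY, which makes cytosolic acetyl-CoA from citrate for both pathways, had 398 ± 11.5 CPM at 500 nM and 513 ± 14.7 CPM in DMSO (-0.37 ± 0.05, adjusted p = 2.85e-07). ACACA, the carboxylase that makes malonyl-CoA, had 146 ± 5.02 CPM at 500 nM and 188 ± 7.92 CPM in DMSO (-0.37 ± 0.06, adjusted p = 2.89e-06). SCD, the desaturase that makes oleate, had 115, 108 and 117 CPM at 500 nM, against 139.8, 145 and 144 CPM in DMSO. SCD fell by 0.34 ± 0.06 (adjusted p = 9.18e-06), with no overlap.

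ELOVL6, which lengthens palmitate, went the other way, with 28 ± 2.77 CPM at 500 nM and 23.1 ± 1.27 CPM in DMSO (0.28 ± 0.09, adjusted p = 0.0115). Its call was lost without 500 nM replicate 2 (0.20, adjusted p = 0.0991). FADS1, the delta-5 desaturase, had 18.8 ± 0.794 CPM at 500 nM and 16.4 ± 2.10 CPM in DMSO and was not called (0.21 ± 0.10, adjusted p = 0.0843), although it passed without DMSO replicate 2 (adjusted p = 0.0275), under total-count scaling (0.00518) and with GC trends removed (0.0343). FADS2, the delta-6 desaturase, was not called either (-0.03 ± 0.09, adjusted p = 0.8). The summed level of the 7 genes was 794 ± 5.80 CPM at 500 nM and 1015 ± 30.8 CPM in DMSO (SD, n = 3 each). Exons of FADS1 and FADS2 share 142 bases on opposite strands, so their counts are not fully separate.

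Among the 3 transport genes, only ABCG1 was called, and it fell, beside 25.6% of all genes called lower and 26.3% higher. It had 5.47, 5.75 and 6.33 CPM at 500 nM, against 9.55, 10.0 and 9.20 CPM in DMSO, a fall of 0.71 ± 0.13 (adjusted p = 5.09e-05). ABCA1 had 34.2, 39.5 and 32.6 CPM at 500 nM, against 37.4, 36.8 and 40.0 CPM in DMSO, and these overlapped (-0.11 ± 0.08, adjusted p = 0.262). STARD4, which carries sterol between membranes, had 44.3 ± 2.07 CPM at 500 nM and 45.7 ± 4.21 CPM in DMSO (-0.04 ± 0.08, adjusted p = 0.675). The 2 exporters therefore differed in call at the same dose, but the difference between them was not tested.

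At 150 nM none of the 33 members was called against DMSO, where 0.954% of all genes were called higher and 0.318% lower. At an unadjusted p under 0.05 there were 11 members, all with lower values at 150 nM, beside 1572 of the 15089 genes tested (847 higher and 725 lower). DESeq2 called 1 member, HMGCS1, and limma-voom called 0. The median log2 fold change was -0.08, beside -0.00 for all genes, and 25 members lay below 0. HMGCS1 came closest to the threshold, with 228, 225 and 224 CPM at 150 nM, against 254, 264 and 255 CPM in DMSO. Its groups did not overlap (-0.19 ± 0.05, adjusted p = 0.0585). FDFT1 had 169, 156 and 161 CPM at 150 nM, against 186, 182 and 184 CPM in DMSO (-0.18 ± 0.05, adjusted p = 0.108). In 7 members the 150 nM libraries lay wholly below DMSO and in 1, ABCA1, wholly above, beside 7.32% and 6.41% of all genes. ABCA1 had 43.1, 41.9 and 41.7 CPM at 150 nM (0.15 ± 0.08, adjusted p = 0.531).

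The count at 150 nM moved most when 1 library was left out. Without 150 nM replicate 1, 6 members were lower: HMGCS1, FDPS, FDFT1, LSS, DHCR7 and FASN, with adjusted p from 0.00565 (FASN) to 0.0435 (FDPS). The same omission took the calls over all genes from 192 to 545, with 368 higher and 177 lower of 15401 tested. Replicate 1 at 150 nM had the highest value of its group in 22 of the 33 members. FASN shows the pattern, with 106, 88.1 and 84.0 CPM in 150 nM replicates 1, 2 and 3, and PMVK does too, with 51.7, 41.6 and 42.0 CPM. SC5D was the reverse, 0.52 log2 units lower in that library than in the other 2. Without DMSO replicate 3, MVD was called lower at 150 nM (adjusted p = 0.0237). With GC trends removed 4 members were called lower, HMGCS1, FDFT1, SQLE and FASN, beside 111 lower and 249 higher of 14438 genes.

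The means of 19 members were ordered DMSO above 150 nM above 500 nM (57.6%), an order found in 29.6% of all genes, and the reverse order was found in 3 members, SREBF1, INSIG2 and ELOVL6. Of the 18 sterol enzymes 13 had the first order and 0 the second. The summed level of the sterol enzymes was 1931 ± 19.0 CPM in DMSO, 1786 ± 6.62 CPM at 150 nM and 1522 ± 34.2 CPM at 500 nM. That of the fatty acid enzymes was 1015 ± 30.8, 935 ± 47.2 and 794 ± 5.80 CPM, and that of the regulators was 475 ± 4.35, 448 ± 14.7 and 479 ± 9.26 CPM, in the same order of dose. Both dose comparisons share the DMSO libraries, so these orders are not independent of each other.

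Set directly against 150 nM, the 500 nM cells showed 16 members that fell and 2 that rose, beside 22.8% and 23.7% of all genes (46.5% in all). In 16 members the 500 nM libraries lay wholly below those at 150 nM, and in 3 wholly above, beside 26% and 29% of all genes. Their median was -0.16, beside 0.01 for all genes. With total-count scaling 7 were lower and 5 higher, and among all genes 5257 were higher and 2137 lower, in place of 3577 higher and 3444 lower. SREBF1 (0.50 ± 0.09, adjusted p = 3.1e-05) and SREBF2 (0.21 ± 0.06, adjusted p = 0.00481) were the 2 that rose, and for SREBF2 the 150 nM libraries, at 194, 180.5 and 172 CPM, lay wholly below those at 500 nM. Among sterol enzymes 10 fell, led by HMGCS1 (-0.61 ± 0.05, adjusted p = 1.04e-10), FDFT1 (-0.53 ± 0.05, adjusted p = 7.46e-09) and PMVK (-0.53 ± 0.08, adjusted p = 7.92e-06). The same 4 fatty acid enzymes fell as against DMSO, with FASN at -0.48 ± 0.08 (adjusted p = 1.31e-05). INSIG1, with 159, 178 and 164 CPM at 150 nM, was not called (-0.12 ± 0.06, adjusted p = 0.0871).

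Both exporters were lower at 500 nM than at 150 nM, but neither call held under total-count scaling (ABCA1 -0.13, adjusted p = 0.166, and ABCG1 -0.28, adjusted p = 0.0855). ABCA1 fell by 0.25 ± 0.08 (adjusted p = 0.00819), a call lost without 500 nM replicate 3 (0.0691). ABCG1, with 8.91, 7.60 and 6.65 CPM at 150 nM, fell by 0.40 ± 0.13 (adjusted p = 0.0138), a call lost without 500 nM replicate 1 (0.0604) or 150 nM replicate 1 (0.112). SC5D fell by 0.37 ± 0.13 (adjusted p = 0.0218), with overlapping libraries. Leaving out 150 nM replicate 3 reduced its change to -0.21 (adjusted p = 0.167), and 3 other libraries also decided its call, 500 nM replicate 1 (0.097), 500 nM replicate 2 (0.0672) and 150 nM replicate 2 (0.0552). Single libraries also decided ACAT2 and SCD (500 nM replicate 2, 0.0547 and 0.0525), SQLE (500 nM replicate 3, 0.0579), MSMO1 (150 nM replicate 2, 0.0555) and NSDHL (500 nM replicate 1, 0.0585, and 150 nM replicate 3, 0.0766). Without 150 nM replicate 1, SCAP (0.0117) was called higher and INSIG1 (0.0219) and IDI1 (0.0103) lower, and without 150 nM replicate 3 TM7SF2 was called lower (0.048). Total-count scaling also ended the calls of ACAT2 (0.351), SQLE (0.509), MSMO1 (0.0592), NSDHL (0.161), HSD17B7 (0.0781), SC5D (0.116) and SCD (0.351).

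**Figure D4:**
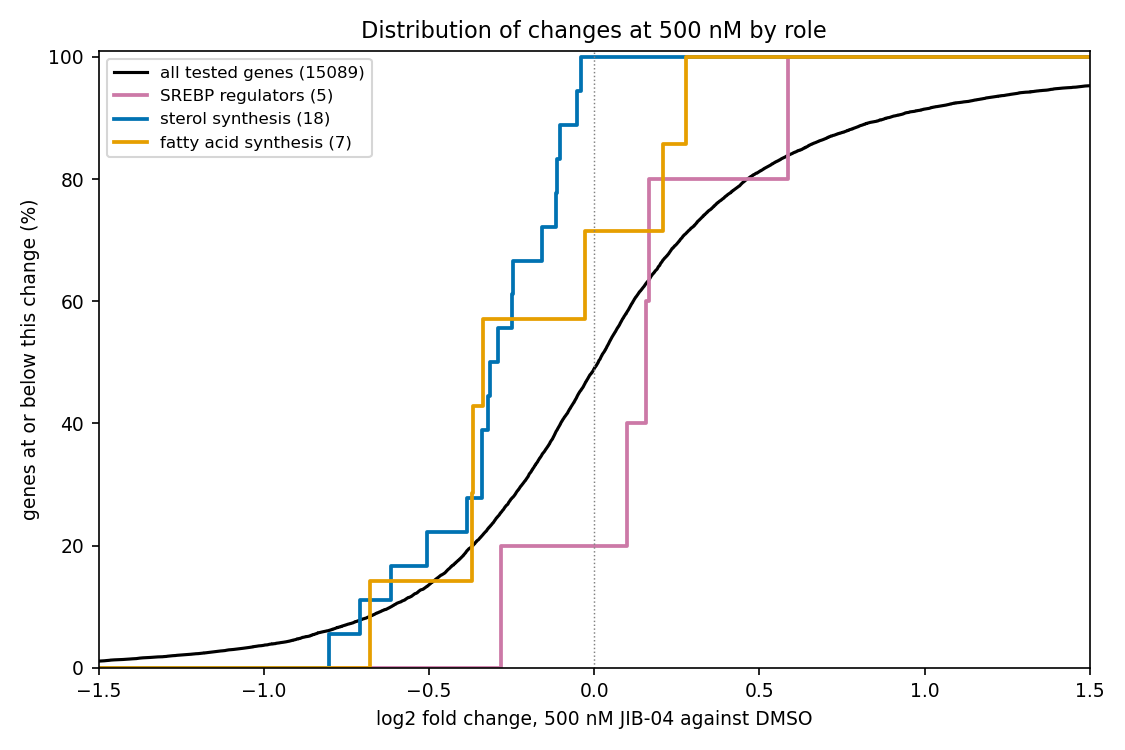
Cumulative share of genes against the log2 fold change of 500 nM JIB-04 over DMSO, for all 15089 tested genes, the 18 sterol synthesis genes, the 7 fatty acid synthesis genes and the 5 SREBP regulators. The medians are 0.01, -0.30, -0.34 and 0.16, and all 18 sterol synthesis genes lie left of 0 under this scaling (13 of 18 with total counts).

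Other lipid genes were summarised from 7 lists written down with the members, and their counts stand beside 26.3% of all genes called higher and 25.6% called lower at 500 nM against DMSO. For the lists of sterol and isoprenoid enzymes and of SREBP cleavage, turnover and cofactors the shares lay near that background. The 11 further sterol and isoprenoid enzymes held 4 that fell and 3 that rose at 500 nM against DMSO (median log2 fold change -0.07). LBR, a sterol reductase of the nuclear envelope, fell by 0.50 ± 0.05 (adjusted p = 1.06e-08). Of 10 genes for SREBP cleavage, turnover and cofactors, 3 rose and 4 fell (median -0.16). NFYA, a subunit of the CCAAT-binding factor NF-Y, had 54.9 ± 3.65 CPM at 500 nM and 66.1 ± 1.17 CPM in DMSO, and fell by 0.27 ± 0.07 (adjusted p = 0.0014). MBTPS1, the first SREBP protease, fell by 0.20 ± 0.05 (adjusted p = 0.00258). Under total-count scaling 3 of these 10 were higher and 0 lower, beside 5716 higher and 2514 lower of all 15089 genes.

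Of 13 tested genes for sterol uptake, storage and trafficking, 8 rose and 3 fell (median 0.29). VLDLR, a lipoprotein receptor, had 85.5 ± 6.55 CPM at 500 nM and 15.7 ± 1.8 CPM in DMSO, a rise of 2.43 ± 0.09 (adjusted p = 4.48e-19). It was also the single gene of the 7 lists that was called at 150 nM, with 30.5 ± 2.23 CPM (0.94 ± 0.09, adjusted p = 3.39e-08). LRP8, a receptor of the same family, fell by 0.47 ± 0.05 (adjusted p = 3.51e-08). Of 6 tested LXR and oxysterol genes 2 rose and 1 fell (median 0.17), and NR1H2, the LXR-beta receptor, rose by 0.57 ± 0.08 (adjusted p = 2.04e-06).

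Of 22 further genes for fatty acid synthesis, elongation and activation, 9 rose and 4 fell at 500 nM (median 0.00). ELOVL2, an elongase of polyunsaturated fatty acids, rose by 0.63 ± 0.10 (adjusted p = 6.18e-06), and ELOVL1, an elongase of very long chains, fell by 0.47 ± 0.08 (adjusted p = 2.5e-05). Glycerolipid synthesis held 5 genes that rose and 2 that fell of 11 tested (median 0.12), including LPIN1, a phosphatidate phosphatase, with 222.5 ± 6.57 CPM at 500 nM and 144.7 ± 4.55 CPM in DMSO (0.62 ± 0.05, adjusted p = 4.42e-11). Of 15 tested fatty acid oxidation genes 10 fell and 0 rose (median -0.21), and this became 7 lower and 1 higher under total-count scaling. That scaling called 2514 of all 15089 genes lower and 5716 higher. HADHA, a subunit of the mitochondrial trifunctional protein, had 169.7 ± 5.19 CPM at 500 nM and 244.9 ± 4.68 CPM in DMSO, and fell by 0.53 ± 0.05 (adjusted p = 5.67e-10).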

How the data were processed

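Per the labels' protocols, ribosomal RNA was removed from total RNA of OCI-Ly1 cells. The authors deposited 1 table of raw read counts with a row for each gene symbol and a column for each library. Its columns were matched to groups and replicate numbers by the sample titles. The submitters' processing notes list the tools featureCounts 1.4.6, Subread, Bowtie2 2.2.6 and TopHat2 2.0.14 and the builds hg19 and mm10, with no roles. No source used here gives the annotation version or the strand setting.

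The counts were analysed with edgeR 4.0.16 in R 4.3.3: filterByExpr (minimum count 10, minimum total 15) left 15089 genes, libraries were scaled by TMM, and a robust quasi-likelihood model was fitted to all 9 libraries. Benjamini-Hochberg adjustment was made over all genes tested, and adjusted p-values in the text come from this test unless another tool is named. Standard errors were obtained by dividing the unshrunk log2 fold change by the root of the F statistic. The fit was tested on simulated data. CPM per kb uses the longest GENCODE 29 transcript. Promoters and symbols were matched through RefSeq tables of GRCh38.p14, and 5 symbols of the other lists were matched through an older name. Counts per library ran from 28476845 to 57198613, and the members' standard errors reflect this depth and the spread of 3 libraries.

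The members, the other gene lists and the tests were chosen with earlier results of these data known. All members were accounted for. Each library's value is given for members called with a log2 fold change of at least 0.5 in size in a comparison, and for SREBF1, SREBF2, SCAP, INSIG1, HMGCS1, FASN, SCD, ABCA1 and ABCG1. From the other lists, at most the 2 called genes with the smallest adjusted p in each direction qualified, and not all of these are named. Libraries within each group were kept separate, since their counts differed beyond sampling error (chi-square per degree of freedom 6.6 to 16.06). Alternatives were DESeq2 1.42.0, limma-voom (limma 3.58.1), 2 other scalings, 2 other filters, a block for the replicate number, fits restricted to the 6 libraries of a comparison, omission of each library in turn, and removing trends on GC content or transcript length, which 95.7% of tested genes have.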

Additional observations from a re-analysis of the deposited data

How the results depend on the processing

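Over 19 alternatives the members called were 17 to 25 for 500 nM against DMSO and 12 to 22 for 500 nM against 150 nM, beside 20 and 18. At 150 nM against DMSO, where 0 were called, DESeq2 called 1, the fit with GC trends removed called 4, and the fits without 1 library called 0 to 6, with 6 without 150 nM replicate 1 and 1 without DMSO replicate 3. Leaving out a library gave 17 to 22 calls for 500 nM against DMSO and 15 to 20 for 500 nM against 150 nM. Over all genes these fits gave 7053 to 8230 and 6062 to 7199 calls. Of the 20 members called at 500 nM against DMSO, 13 were called under all 19 alternatives, as were 9 of the 18 called against 150 nM. Total-count scaling gave 17 and 12 calls, and no called member changed sign under any of the 19 alternatives. With GC trends removed the change of MVD at 500 nM against DMSO was -0.49 in place of -0.32, and that of SREBF1 against 150 nM was 0.32 in place of 0.50. The cause of these differences was not tested.

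With the replicate number as a block, the calls were 22, 2 and 20 for 500 nM against DMSO, 150 nM against DMSO and 500 nM against 150 nM, and the 2 at 150 nM were HMGCS1 and FDFT1. Over all 15089 genes the block gave 8133, 308 and 7386 calls. Correlations of same-numbered libraries were -0.05 to 0.10, and 1 of 9 exceeded 0.1. No label says what a number marks, and these low correlations cannot show that the libraries were unpaired. Over all genes the calls at 150 nM against DMSO, 192, became 291 with DESeq2, 308 with the block, 320 with no filter and 360 with GC trends removed, and 98 to 545 without 1 library. Standard errors of the members' log2 fold changes were 0.05 to 0.14, largest for the members with few counts, ABCG1 and INSIG2.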
